A study of Sus scrofa with 6 samples.

Results

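Translation initiation factors are the proteins that bring an mRNA, the initiator tRNA and the ribosomal subunits together at the start codon, and their transcripts were compared between sham and descending aortic constriction (DAC) minipigs. The members were all genes of the expression table whose name starts with EIF1, EIF2, EIF3, EIF4, EIF5 or EIF6, without the EIF2AK kinases and with the eIF4E repressors. This rule uses names alone and found 40 of the 13288 listed genes. RNA was sequenced from the ventricular tissue of 3 sham minipigs (replicates 1 to 3) and 3 DAC minipigs (replicates 4 to 6), with 1 library for each animal. All were male Tibetan minipigs, a small pig breed, and all underwent thoracotomy. In the DAC group, sutures narrowed the descending aorta to load the left ventricle chronically with pressure, and the sham group had no constriction. The tissue was taken at the end of the follow-up, and the ages and the position of the sample within the ventricles are not given in the sources used here.

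Initiation runs in steps that the families of factors divide among themselves. eIF2 carries the initiator tRNA as a complex with GTP, eIF2B recharges eIF2 with GTP, eIF1 and eIF1A guard the choice of the start codon, and eIF3 is the large scaffold on the small ribosomal subunit. The eIF4F complex of the cap binder eIF4E, the helicase eIF4A and the scaffold eIF4G brings in the mRNA, and the eIF4E-binding proteins (EIF4EBP) block eIF4E until mTORC1 phosphorylates them. eIF5B joins the large subunit, and eIF6 keeps the large subunit from joining too early. In the heart, growth of the cardiomyocyte under load depends on protein synthesis, and much of the control of these factors is by phosphorylation, which RNA levels do not show.

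The values are FPKM, which are fragment numbers scaled by transcript length and by the mapped fragments of the library. The sum of FPKM was between 281377 and 308771 in the 6 libraries, and the read depth behind a value is unknown. Genes of the mitochondrial genome held 24.0 to 25.3% of the sum in the sham libraries, 27.1 to 27.2% in DAC replicates 4 and 6 and 32.8% in DAC replicate 5. The tissue label was checked with cardiomyocyte markers, of which 7 of 10 were listed, with a summed level of 13653 to 14481 FPKM in the sham group and 13027 to 16089 FPKM in the DAC group. Fibroblast markers summed to 499 to 579 FPKM in the sham group and 719 to 802 FPKM in the DAC group, and 5 of 8 passed the test as higher, as did 3.25% of all genes tested. The other cell types had overlapping sums: 135 to 187 FPKM against 120 to 179 FPKM for endothelial markers, 66.7 to 95.1 FPKM against 90.5 to 107 FPKM for smooth muscle, 42.9 to 45.5 FPKM against 34.7 to 47.5 FPKM for leukocytes, 11.4 to 39.3 FPKM against 5.96 to 38.5 FPKM for red blood cells and 4.73 to 12.7 FPKM against 10.1 to 20.7 FPKM for adipocytes. Of these markers, RYR2 (cardiomyocyte), VWF (endothelial) and CD163 (leukocyte) were lower and KDR (endothelial) and CNN1 (smooth muscle) higher by the test, and ADIPOQ (adipocyte) and ALAS2 (red blood cell) were near 0. In a bulk sample, fewer cells of a type and less RNA per cell cannot be told apart, and the part of these cell types in the results below was not tested.

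The initiation factors spanned a wide range of levels in the myocardium. By mean FPKM over the 6 minipigs, EIF1 was the most abundant at 330.3 FPKM, followed by the helicase EIF4A2 at 149.97 FPKM and the eIF3 subunit EIF3G at 121 FPKM. The median of the 40 members was 20.4 FPKM, 30 members reached 10 FPKM and 6 were under 5 FPKM. The lowest was EIF5A2, the minor eIF5A isoform, at 0.704 FPKM. EIF4E, the cap binder itself, was at 3.07 FPKM, which was rank 36 of the 40. These levels are per length of transcript, so they can be compared between genes, within the limits of the annotation.

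**Figure D1:**
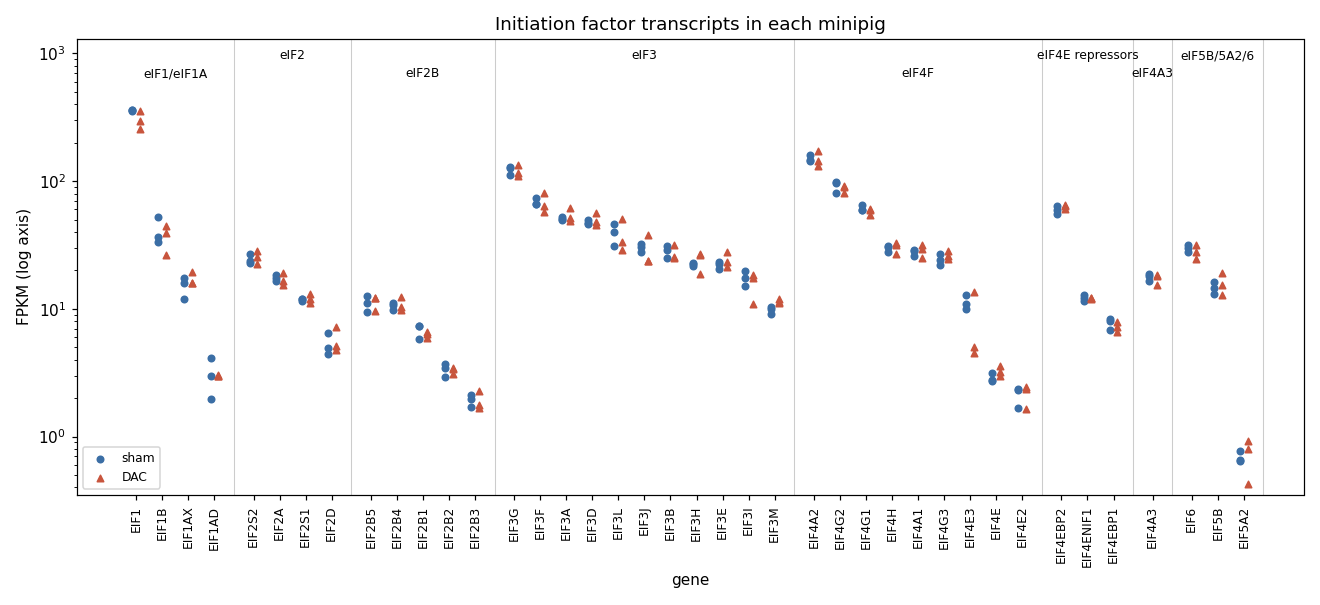
FPKM on a log axis of the 40 members in each of the 3 sham minipigs (circles) and 3 DAC minipigs (triangles), ordered by role and by mean level. EIF1 is at the top at 256 to 360.2 FPKM, EIF5A2 is at the bottom at 0.426 to 0.918 FPKM, and the groups overlap in all tested members except EIF1 and EIF3M.

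No initiation factor passed the test for a difference between the groups. Of the 40 members, 39 reached 1 FPKM in at least 3 samples and were tested on log2(FPKM + 1) with limma, and EIF5A2 was not. At an unadjusted P under 0.05, 0 of the 39 were differentially expressed genes (DEGs), while 8.51% of the 11029 genes tested were. The smallest P was 0.0754, for EIF3M, and the smallest adjusted P from limma was 0.606, and no gene of the whole table had an adjusted P under 0.05 either. When each gene kept its own variance instead, 1 member was called, also EIF3M, while 8.06% of all genes tested were. In 19 members the DAC mean exceeded the sham mean, and in 20 it was below it. Their median log2 fold change (log2FC, the DAC mean minus the sham mean) was -0.0040, against -0.016 over all genes tested. All DAC values lay above all sham values in 1 member, EIF3M (6.01% of all genes tested), and below them in 1 member, EIF1 (8.91% of all genes tested). Together 2 of the 39 members had groups that did not overlap, where 14.9% of all genes tested did.

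The absence of a call does not show that the levels were equal, so the intervals of the differences are given. The log2FC was closer to 0 than 0.1 in 29 of the 39 members, or 74.4%, and in 40.0% of all genes tested. The members had a higher typical level than all genes tested, whose median was 5.96 FPKM. The median absolute log2FC was 0.073 in the members and 0.130 over all genes tested. It was 0.130 as well in the 2566 tested genes at 10.7 to 38.6 FPKM, the range between the quartiles of the members. The part of the level in these differences was not tested. In 35 members, or 89.7%, the 95% interval lay within a 1.5-fold change in either direction, against 66.8% of all genes tested. In 38 members it lay within a 2-fold change. The exceptions at 1.5-fold were EIF1B, EIF3I, EIF3L and EIF4E3, and EIF4E3 was also the exception at 2-fold. The scale of log2(FPKM + 1) understates changes of low genes, and with a pseudocount of 0.1 the interval was within 1.5-fold in 31 members.

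**Figure D2:**
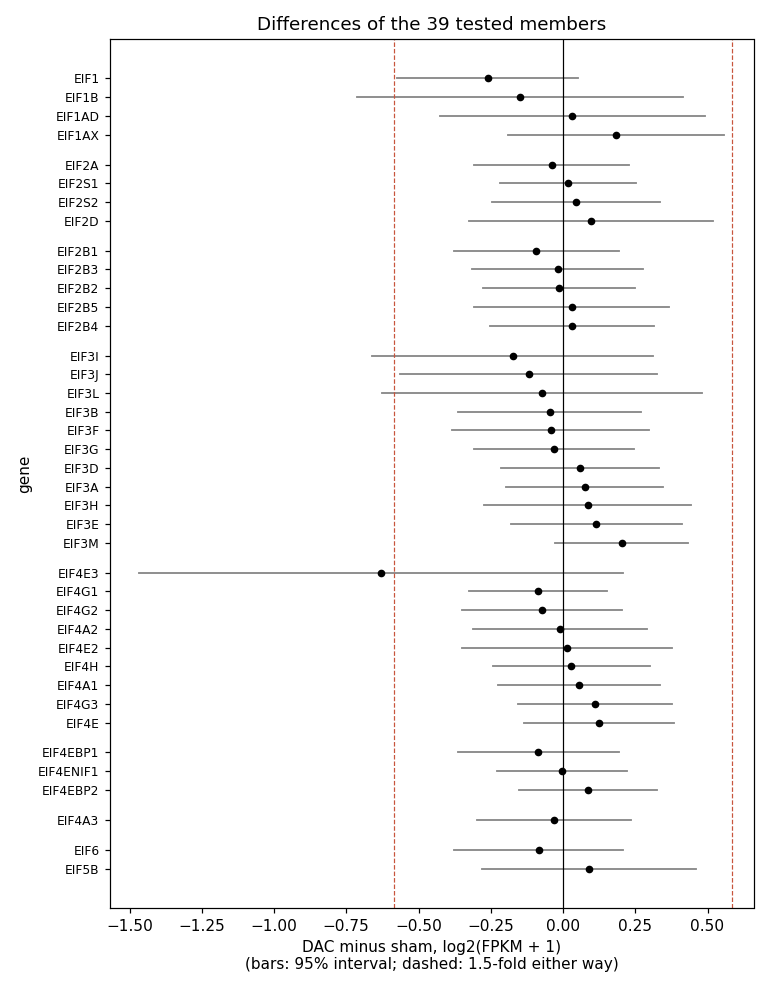
Difference between the DAC and sham groups in mean log2(FPKM + 1) for the 39 tested members, with the 95% interval from limma as a bar, grouped by role. Every interval holds 0, and dashed lines mark a 1.5-fold change, which the intervals of EIF1B, EIF3I, EIF3L and EIF4E3 pass.

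Among the factors of start codon choice, EIF1 stood out by its even level in the sham group. EIF1 (ENSSSCG00000017430, chromosome 12 from 20974496 to 20977062 on susScr11) encodes the factor that keeps the scanning ribosome from starting at a wrong codon. Its level was 360.2, 357 and 359 FPKM in sham replicates 1 to 3 and 353, 256 and 297 FPKM in DAC replicates 4 to 6. All DAC values were below all sham values, with DAC replicate 4 close to the sham group and replicate 5 the lowest. EIF1 averaged 359 ± 1.87 FPKM over the sham minipigs (SD, n = 3) and 302 ± 48.6 FPKM over the DAC minipigs (SD, n = 3). The log2FC was -0.26 (SE 0.13, 95% interval -0.57 to 0.053, limma adjusted P = 0.628). It was -0.38 without DAC replicate 4, with an unadjusted P of 0.0112, -0.15 without DAC replicate 5, with an unadjusted P of 0.239, and -0.11 after quantile normalization. With the mitochondrial genes left out and the rest rescaled it was -0.22. The locus of EIF1 overlaps 1 listed gene on the other strand, and the part of that gene's reads was not tested.

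The paralog EIF1B was at 33.1 to 52.6 FPKM in the sham group and 26.4 to 44.8 FPKM in the DAC group, so that the groups overlapped widely. EIF1AX, the X-linked eIF1A, was at 15.9, 17.4 and 12.02 FPKM in the sham group and 19.6, 15.98 and 15.97 FPKM in the DAC group. Its log2FC was 0.18 with a 95% interval of -0.19 to 0.56. EIF1AD, an eIF1A domain protein, was at 1.96 to 4.10 FPKM in the sham group and 2.98 to 3.06 FPKM in the DAC group, a spread that was wider among the sham animals.

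**Figure D3:**
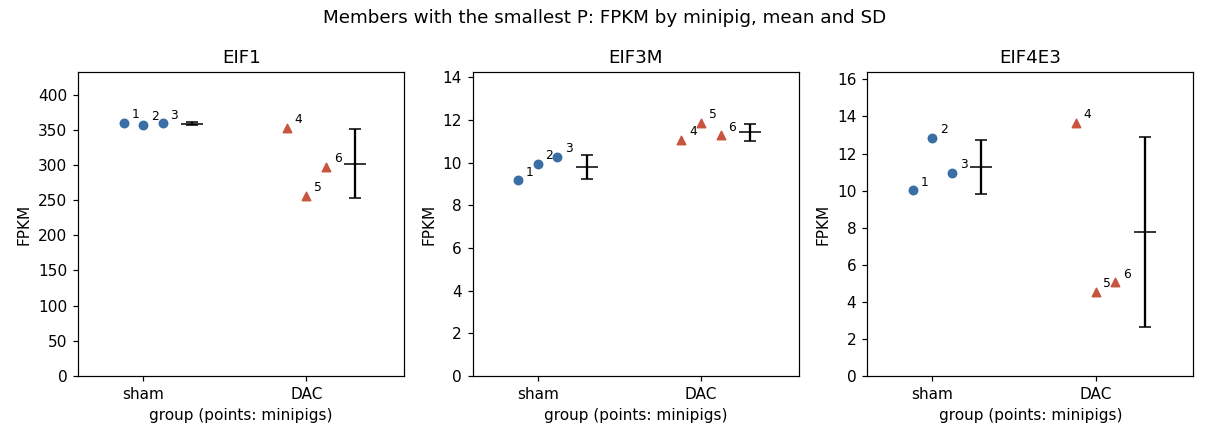
FPKM of EIF1, EIF3M and EIF4E3 in each minipig (numbers are the replicates), with the mean and SD of each group as bars and axes starting at 0. EIF1 is even in the sham group and spread in the DAC group, EIF3M is separate between the groups, and EIF4E3 in DAC replicate 4 sits with the sham animals at 13.7 FPKM.

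The subunits of eIF2 and of its exchange factor eIF2B were at like levels in both groups. EIF2S1 (ENSSSCG00000033295, chromosome 7 from 91085335 to 91109829), the alpha subunit whose phosphorylation by stress kinases slows initiation, was at 11.9, 12.03 and 11.6 FPKM in the sham group. It was at 13.0, 11.9 and 11.2 FPKM in the DAC group, on both sides of the sham values. The log2FC of EIF2S1 was 0.019, with a 95% interval of -0.22 to 0.25. EIF2S2, the beta subunit and the most abundant of this family, was at 22.8, 23.8 and 27.1 FPKM in the sham group and 25.6, 28.2 and 22.5 FPKM in the DAC group. EIF2A, which is a separate protein that can bring an initiator tRNA to the ribosome, was at 15.4 to 19.0 FPKM over all samples. EIF2D, a further tRNA delivery factor, was at 4.40, 4.95 and 6.44 FPKM in the sham group and 4.79, 7.20 and 5.16 FPKM in the DAC group. Of the 4 members grouped here as eIF2 and initiator tRNA delivery, EIF2D had the smallest P, 0.606 before adjustment (limma adjusted P = 0.895).

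All 5 genes of eIF2B were listed, and their mean levels differed from 1.91 FPKM for EIF2B3 to 11.2 FPKM for EIF2B5. EIF2B5 (ENSSSCG00000011783, chromosome 13 from 122060484 to 122070708) encodes the catalytic subunit. It was at 12.7, 9.50 and 11.1 FPKM in the sham group and 12.1, 12.2 and 9.66 FPKM in the DAC group. These ranges coincided, and the log2FC was 0.030 with a 95% interval of -0.31 to 0.37. EIF2B1, the regulatory alpha subunit, was at 7.37, 5.81 and 7.36 FPKM in the sham group and 5.94, 6.64 and 6.40 FPKM in the DAC group, a log2FC of -0.093. Over the 5 subunits the log2FC was between -0.093 and 0.032. The sum of the 5 subunits averaged 33.8 ± 3.00 FPKM over the sham minipigs (SD, n = 3) and 33.7 ± 2.99 FPKM over the DAC minipigs (SD, n = 3).

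The eIF3 scaffold was represented by 11 subunit genes, from EIF3M at 10.6 FPKM to EIF3G at 121 FPKM in the mean of all samples. EIF3M (ENSSSCG00000013315, chromosome 2 from 28256591 to 28411579) was the member with the smallest P. It was at 9.16, 9.93 and 10.3 FPKM in sham replicates 1 to 3 and 11.1, 11.9 and 11.3 FPKM in DAC replicates 4 to 6. The groups did not overlap, and the average was 9.79 ± 0.565 FPKM over the sham minipigs (SD, n = 3) and 11.4 ± 0.415 FPKM over the DAC minipigs (SD, n = 3). The log2FC was 0.20 (SE 0.098, 95% interval -0.027 to 0.43, limma adjusted P = 0.606). Its unadjusted P was 0.0174 with the variance of each gene on its own and 0.0421 with the mitochondrial genes left out. It was from 0.0881 to 0.214 when any 1 sample was left out, with log2FCs between 0.16 and 0.24.

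EIF3A (ENSSSCG00000010679, chromosome 14 from 128967684 to 129007109), the largest subunit of the scaffold, was at 50.5, 49.8 and 52.0 FPKM in the sham group and 61.2, 51.4 and 48.7 FPKM in the DAC group. DAC replicate 4 alone was above the sham range. EIF3G, an RNA-binding subunit, was at 129, 126 and 111 FPKM in the sham group and 110.4, 133 and 115 FPKM in the DAC group, a log2FC of -0.032. The log2FCs of the 11 subunits were between -0.17 for EIF3I and 0.20 for EIF3M, with a median of -0.032. Their summed level averaged 458 ± 14.9 FPKM over the sham minipigs (SD, n = 3) and 459 ± 46.6 FPKM over the DAC minipigs (SD, n = 3).

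The DAC animals differed among themselves in the eIF3 subunits, although the group averages of the sum were close. The sums were 467, 467 and 441 FPKM in the sham group, and 429.9, 513 and 435 FPKM in DAC replicates 4, 5 and 6. Replicate 5 was above and the other DAC replicates were below all sham sums. In DAC replicate 5, 10 of the 11 subunits were above their sham mean, with a median deviation of 0.23 on the log2 scale, and 7 had their highest value of all samples there. Over all genes tested, 14.9% had their highest value in that library, whose median deviation was -0.039. In DAC replicate 4 the median deviation was -0.14, with 7 of the 11 subunits below their sham mean and 4 above it. There 6 subunits had their lowest value, as did 21.1% of all genes tested, whose median deviation in that library was -0.022. EIF3A, EIF3E and EIF3M were above their sham mean in both DAC replicates 4 and 5. EIF3J, a loosely bound subunit, went against the median in both. It was at 37.8 FPKM in DAC replicate 4 and 23.8 and 23.7 FPKM in DAC replicates 5 and 6, against 28.02 to 32.2 FPKM in the sham group. EIF3L, at 29.0, 51.0 and 33.1 FPKM in DAC replicates 4 to 6, also varied among the sham animals, from 30.9 to 46.3 FPKM. This pattern by animal was seen in the values first and was not tested. DAC replicate 5 is also the library with the highest mitochondrial share, and its part in the pattern was not tested.

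**Figure D4:**
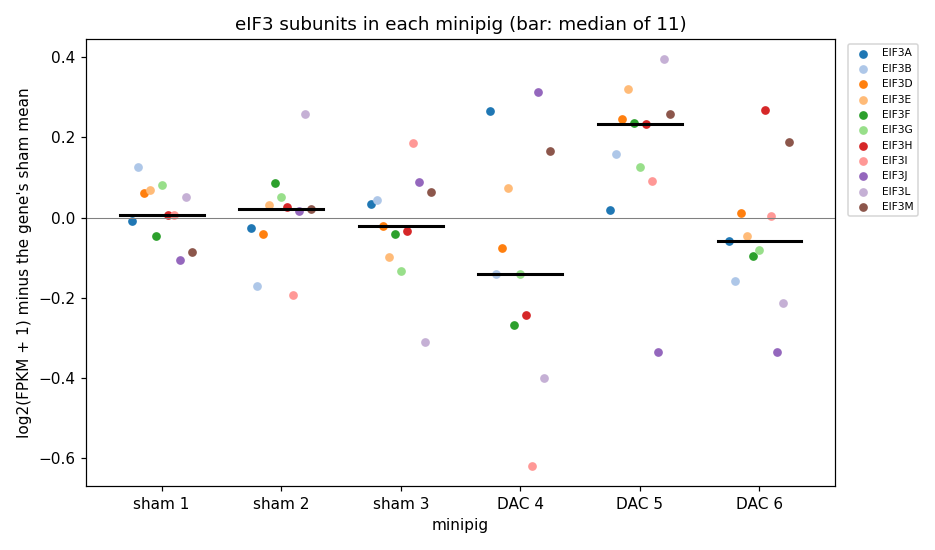
Deviation of each of the 11 eIF3 subunits from its own sham mean, in log2(FPKM + 1), for each minipig, with the median of the subunits as a black bar. The black bar is at 0.23 in DAC replicate 5 and at -0.14 in DAC replicate 4, and the other minipigs have bars from -0.059 to 0.021.

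Without DAC replicate 4, 4 of the 39 members were DEGs at an unadjusted P under 0.05, where 7.52% of all genes tested were DEGs in the same fit. EIF3H was then higher with a log2FC of 0.25 (0.086 in all samples), and EIF3J was lower with -0.33 (-0.12 in all samples). The others were EIF1 and EIF4E3, and the smallest adjusted P from limma among the 4 was 0.428, for EIF4E3.

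In the cap-binding family the transcripts of the core complex showed no called change. EIF4E (ENSSSCG00000028420, chromosome 8 from 121409731 to 121466899), which binds the mRNA cap, was at 2.74, 2.78 and 3.16 FPKM in the sham group and 2.96, 3.55 and 3.23 FPKM in the DAC group. Of the DAC values, 2 were above the sham range, and the log2FC was 0.13 with a 95% interval of -0.13 to 0.39. EIF4G1 (ENSSSCG00000030255, chromosome 13 from 122203511 to 122225359), the main scaffold, was at 59.8, 59.3 and 65.5 FPKM in the sham group and 53.9, 60.1 and 59.6 FPKM in the DAC group. Its log2FC was -0.087, with a 95% interval of -0.33 to 0.15, and its locus overlaps FAM131A on the same strand. EIF4G2, the scaffold that lacks the EIF4E site, and EIF4G3 were at 80.2 to 98.3 FPKM and 22.1 to 28.2 FPKM over all samples. The locus of EIF4G2 overlaps CTR9 and ZBED5, 1 of them on the same strand. The part of overlapping genes in the levels of EIF4G1 and EIF4G2, and in their ratio below, was not tested.

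The helicase genes EIF4A1 and EIF4A2 are close paralogs, and how shared reads were divided between them is not given in the sources used here. EIF4A1 (ENSSSCG00000017957, chromosome 12 from 52868431 to 52874249) was at 25.7, 28.1 and 29.0 FPKM in the sham group and 25.2, 31.6 and 29.6 FPKM in the DAC group. EIF4A2, the more abundant gene in this tissue, was at 159, 146 and 145 FPKM in the sham group and 173, 131 and 145 FPKM in the DAC group. In DAC replicates 4 and 5 the helicases moved in opposite directions, with EIF4A2 highest in replicate 4 and EIF4A1 highest in replicate 5. The log2FCs were 0.055 for EIF4A1 and -0.011 for EIF4A2. EIF4H, a cofactor of the helicase, was at 26.8 to 33.0 FPKM over all samples.

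EIF4E3 (ENSSSCG00000011516, chromosome 13 from 53051821 to 53152319), a divergent relative of the cap binder, had the largest difference of all members and the widest interval. It was at 10.01, 12.8 and 10.96 FPKM in the sham group and 13.7, 4.54 and 5.06 FPKM in DAC replicates 4, 5 and 6. DAC replicate 4 had the highest level of all samples, and the other DAC samples had the lowest. EIF4E3 averaged 11.3 ± 1.44 FPKM over the sham minipigs (SD, n = 3) and 7.76 ± 5.13 FPKM over the DAC minipigs (SD, n = 3). The log2FC was -0.63 (SE 0.35, 95% interval -1.47 to 0.21, limma adjusted P = 0.645). Without DAC replicate 4 it was -1.08, with an unadjusted P of 0.000271 and an adjusted P of 0.428 from limma, and without DAC replicate 5 it was -0.37. GPR27 overlaps this locus on the other strand. EIF4E2, another relative of EIF4E, was at 1.65 to 2.42 FPKM over all samples.

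The repressors of EIF4E had higher RNA levels in FPKM than their target, which was at 3.07 FPKM in the mean of all samples. EIF4EBP2 (ENSSSCG00000034444, chromosome 14 from 73323642 to 73349291) was at 63.7, 55.1 and 59.8 FPKM in the sham group and 64.8, 64.4 and 60.5 FPKM in the DAC group. EIF4EBP1 (ENSSSCG00000022301, chromosome 15 from 48422816 to 48443399) was at 8.04, 6.86 and 8.34 FPKM in the sham group and 7.18, 7.95 and 6.60 FPKM in the DAC group. The groups overlapped in both genes, with log2FCs of 0.087 and -0.085 and 95% intervals of -0.15 to 0.33 and -0.36 to 0.19. EIF4ENIF1, which carries EIF4E into the nucleus and represses it, was at 11.5 to 12.9 FPKM over all samples, with a log2FC of -0.0040.

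Ratios within a library do not change when a whole library is multiplied by a constant, and 6 were compared. The EIF4EBP1 to EIF4E ratio was 2.94, 2.47 and 2.64 in the sham group and 2.42, 2.24 and 2.04 in the DAC group. All DAC ratios were below all sham ratios, by -0.26 on the log2 scale, and the exact two-sided permutation P was 0.10, the smallest that 3 animals against 3 can give (adjusted P = 0.60 over the 6 ratios). The EIF4EBP2 to EIF4E ratio was 18.9 to 23.3 in the sham group and 18.1 to 21.8 in the DAC group (exact permutation P = 0.50). The EIF4A2 to EIF4A1 ratio was 5.004 to 6.19 in the sham group and 4.15 to 6.86 in the DAC group (exact permutation P = 0.80). The remaining ratios were EIF4G2 to EIF4G1, EIF1B to EIF1, and the summed eIF2B to the summed eIF2 subunits EIF2S1 and EIF2S2. Their groups overlapped, with differences of 0.015, 0.11 and -0.040 on the log2 scale, and their exact permutation P was from 0.70 to 0.90.

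**Figure D5:**
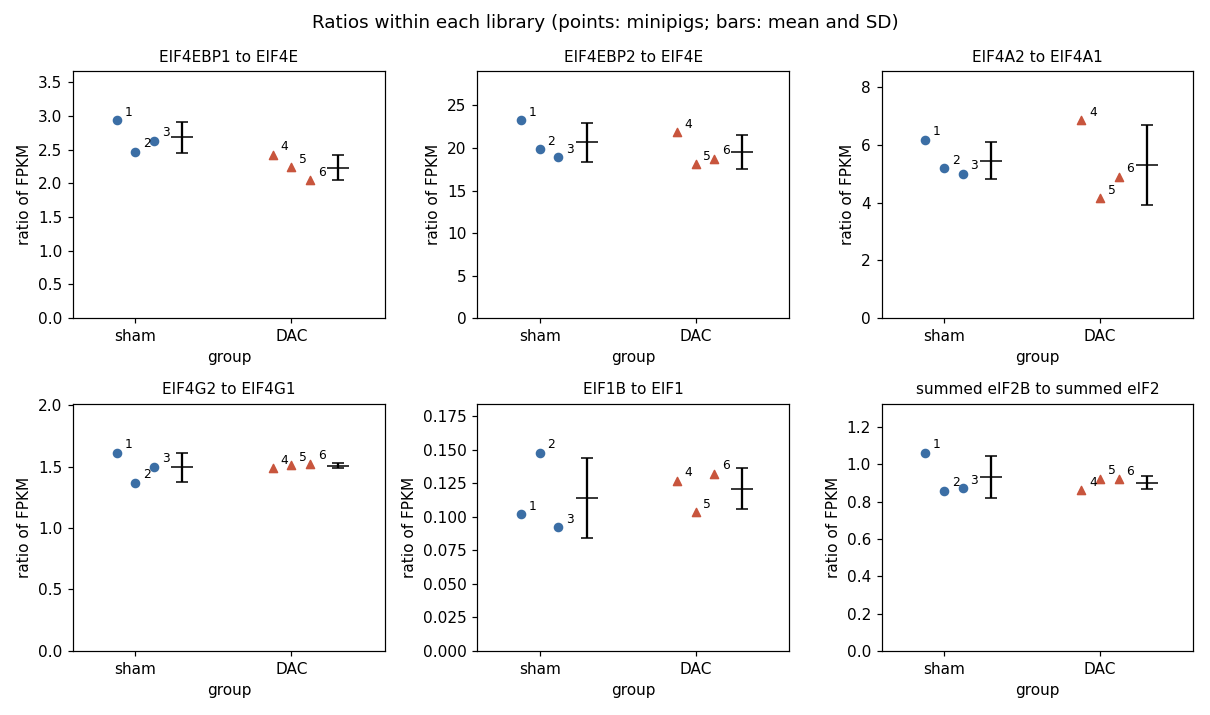
Ratios of FPKM within each library for the 6 pairs compared, with 1 point for each minipig, its replicate number, and the mean and SD of each group. The groups are separate for EIF4EBP1 to EIF4E, at 2.47 to 2.94 in the sham group and 2.04 to 2.42 in the DAC group, and overlap for the other 5 ratios.

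The factors of the last steps were also at like levels. EIF5B (ENSSSCG00000008180, chromosome 3 from 54861759 to 54930776), the GTPase of subunit joining, was at 14.7, 16.1 and 13.2 FPKM in the sham group and 19.1, 15.3 and 12.9 FPKM in the DAC group. EIF6 (ENSSSCG00000022864, chromosome 17 from 38609945 to 38643932) was at 27.9, 29.9 and 31.6 FPKM in the sham group and 24.6, 28.002 and 31.9 FPKM in the DAC group. Their log2FCs were 0.089 and -0.085, and the DAC values of each lay on both sides of the sham range. EIF4A3, a helicase that marks spliced mRNA in the exon junction complex rather than serving initiation, was at 18.6, 16.5 and 18.1 FPKM in the sham group and 15.4, 18.5 and 18.1 FPKM in the DAC group. EIF5A2 was at 0.660, 0.771 and 0.644 FPKM in the sham group and 0.918, 0.426 and 0.805 FPKM in the DAC group.

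Another 2 initiation factors were in rows that carry no name in the table and were matched by gene identifier, so they are outside the 40 members. EIF4B, which stimulates the helicase, was at 122, 130.2 and 117 FPKM in the sham group and 132, 152 and 129 FPKM in the DAC group, a log2FC of 0.16 with a 95% interval of -0.097 to 0.41. EIF1AY, the Y-linked eIF1A, was at 10.6 to 16.1 FPKM in the sham group and 12.1 to 17.6 FPKM in the DAC group. EIF5, EIF5A, EIF2S3, EIF3C, EIF3K and EIF4EBP3 were not analysed here.

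Around the initiation factors, lists of 70 genes that control or follow initiation were taken for the same comparison, of which 66 were listed in the table and 63 were tested, and CHAC1, CYFIP1, MCTS1 and EEF1A1 were not analysed here. Of these, 1 was a DEG with a higher level in the DAC group (background 3.25% of all genes tested) and 6 were DEGs with a lower level (background 5.27%). The lists were chosen with earlier results of these data known, so their counts, here and below, cannot test for an excess over the background. None of the 10 eIF2 kinase and phosphatase genes was a DEG. The kinases EIF2AK1, EIF2AK2, EIF2AK3 and EIF2AK4 had log2FCs of -0.067, 0.15, 0.025 and 0.10. None of the 16 genes listed for mTORC1 and MNK control was a DEG. The log2FC was -0.16 for MTOR and -0.28 for MKNK2, a kinase of eIF4E (limma adjusted P = 0.609). DDIT4, which inhibits mTORC1 and was a lower DEG, was counted with the stress response targets below.

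Of the 8 tested targets of the integrated stress response, the program that follows eIF2 phosphorylation, 3 were lower DEGs and 0 were higher. Over all genes tested, 5.27% were lower and 3.25% were higher DEGs. Because the list was chosen with earlier results known, the counts describe these 8 genes only. The median log2FC of the 8 targets was -0.24. CEBPB, a transcription factor, was at 91.9, 86.7 and 77.9 FPKM in the sham group and 68.8, 40.8 and 52.3 FPKM in the DAC group, with no overlap. Its log2FC was -0.68 (SE 0.19, limma adjusted P = 0.500). DDIT4, an inhibitor of mTORC1, was at 78.1 to 90.1 FPKM in the sham group and 45.0 to 53.0 FPKM in the DAC group, and had a log2FC of -0.79 (SE 0.11, limma adjusted P = 0.222). ATF5, a transcription factor of the same program, was at 11.3, 8.99 and 12.4 FPKM in the sham group and 9.38, 5.66 and 6.26 FPKM in the DAC group, a log2FC of -0.57 whose call was lost without sham replicate 1 or 3 or DAC replicate 5 or 6 and with the variance of each gene on its own. ATF4, the central factor of the program, did not pass, at 30.9 to 40.7 FPKM in the sham group and 26.8 to 32.8 FPKM in the DAC group (log2FC -0.31, unadjusted P = 0.0597, limma adjusted P = 0.595). It was called lower in 3 of 14 alternative fits. The log2FC was then -0.42 without sham replicate 2, -0.40 without DAC replicate 5 and -0.34 with sample weights (limma unadjusted P = 0.0207, 0.0333 and 0.0401). Other targets had higher means in the DAC group without passing the test. ATF3, a stress-induced transcription factor, was at 1.74 to 1.90 FPKM in the sham group and 3.91, 1.23 and 3.51 FPKM in DAC replicates 4 to 6. Its log2FC of 0.39 was 0.75 without DAC replicate 5 (unadjusted P = 0.000635, limma adjusted P = 0.321). Without DAC replicate 4 it was 0.18 (limma unadjusted P = 0.568), and without DAC replicate 6 it was 0.24. ASNS, the asparagine synthetase, had a log2FC of 0.16 that was 0.46 without DAC replicate 4 (unadjusted P = 0.0214, limma adjusted P = 0.628).

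Of 15 tested cofactors and poly(A)-binding genes, 1 was a higher DEG, as were 3.25% of all genes tested, and this was DENR. It encodes a factor that recycles ribosomes and supports reinitiation, and it was at 7.78, 8.70 and 8.23 FPKM in the sham group and 11.8, 11.2 and 9.70 FPKM in the DAC group. All DAC values were above all sham values, with a log2FC of 0.36 (SE 0.11, limma adjusted P = 0.512), and the call was lost without sham replicate 1. Of 14 tested elongation and termination genes, 3 were lower DEGs, as were 5.27% of all genes tested. EEF1A2, the elongation factor of muscle, was at 642, 526 and 620 FPKM (sham) and 502, 500.3 and 446 FPKM (DAC), a log2FC of -0.30 (limma adjusted P = 0.584). DOHH, an enzyme that matures eIF5A by forming hypusine, was at 5.67, 5.59 and 6.504 FPKM in the sham group and 4.68, 4.22 and 4.40 FPKM in the DAC group, with a log2FC of -0.35. DPH1, an enzyme that modifies the elongation factor EEF2, had a log2FC of -0.25. The calls of EEF1A2 and DPH1 were lost after median scaling and with mitochondrial genes left out, and that of EEF1A2 also after quantile normalization. The log2FC was then -0.27, -0.25 and -0.18 for EEF1A2, and it was -0.23 after median scaling and -0.21 with mitochondrial genes left out for DPH1. Without 1 sample, EEF1A2 was lost without sham replicate 1, sham replicate 3 or DAC replicate 6, DPH1 without any sample other than DAC replicate 4, and DOHH without sham replicate 3.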

How the data were processed

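RNA of 3 sham and 3 DAC minipigs was prepared with a NEBNext Ultra kit and read from both ends on Illumina HiSeq. The authors deposited 1 table of FPKM with a column for each minipig and no pooling. The submitters' processing notes name HISAT2 and the build susScr11, while the quantification program and its use of strand and of shared reads are not given in the sources used here. Of the 40 members, 16 overlap another listed gene, 2 of them on the same strand. All 40 positions overlap those of the same symbol in RefSeq (Sscrofa11.1). Low values showed no steps of whole reads, so depth is unknown and precision rests on the spread between minipigs.

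Genes that reached 1 FPKM in 3 or more of the 6 samples were compared on log2(FPKM + 1) with limma 3.58.1 in R 4.3.3 (moderated test with a mean-variance trend). DEGs had an unadjusted P under 0.05, as in the study's methods, with Benjamini-Hochberg adjustment over all 11029 genes. Ratios used FPKM without pseudocount and exact permutation tests (SciPy 1.17.1). Named symbols came from the table, and 519 more were matched by gene identifier. Values in every sample are given for core factors and for the most abundant member and the member with the smallest P of each role. In the other lists, up to 3 genes with the smallest P under 0.05 are given. A few further genes (EIF1AX, EIF3J, EIF3L, EIF3H, ATF3, ASNS and ATF4 among them) were named after their values were seen. The members and lists were chosen with earlier results of these data known. The fit was tested on simulated data. No sequences are printed.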

Additional observations from a re-analysis of the deposited data

How the results depend on the processing

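Alternatives tried were leaving the filter out, raising it to 5 FPKM, a pseudocount of 0.1, median scaling, quantile normalization, mitochondrial genes left out, the variance of each gene on its own, sample weights, and each sample left out in turn. The number of initiation factors called higher was 1 with mitochondrial genes left out and 1 with the variance of each gene on its own. The member was EIF3M each time, with log2 fold changes of 0.24 and 0.20. In these fits, 8.23% and 8.06% of all genes tested were called in either direction. The number of initiation factors called higher was 0 under the other alternatives that kept all samples. Without 1 sample in turn, it was between 0 and 1, and the number called lower was between 0 and 3, with calls only without DAC replicate 4. The other translation genes called higher were 2 after quantile normalization and between 0 and 2 without 1 sample, and those called lower were between 3 and 8 without 1 sample, lowest without DAC replicate 6 and highest without DAC replicate 4. The cause of these shifts was not tested. The median log2 fold change of the initiation factors stayed between -0.029 and 0.043.

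Without 1 sample, the log2 difference of the EIF4EBP1 to EIF4E ratio was between -0.32 and -0.20. The sign of each other ratio turned in at least 1 of these fits: EIF4EBP2 to EIF4E was between -0.16 and 0.0098, EIF4A2 to EIF4A1 between -0.27 and 0.093, EIF4G2 to EIF4G1 between -0.046 and 0.071, EIF1B to EIF1 between -0.030 and 0.31, and eIF2B to eIF2 between -0.095 and 0.058. After quantile normalization, which rescales each level separately, the differences were -0.24, -0.037, -0.030, 0.081, 0.0019 and -0.060 in the same order, with unchanged signs. No paired analysis was possible because different minipigs were randomly assigned to the sham and DAC groups. Unknown depth and 3 animals a group limit what could be called.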
